A study of Mus musculus with 37 samples.

Results

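Hmga2, Hmga1, Lin28b, Igf2bp1, Igf2bp2 and Igf2bp3 form a set of oncofetal genes, active in the embryo and in many tumours and silent in most adult tissue. They were followed through every probe set that the array's annotation gives to them alone, over all 37 arrays. The 6 names led to 15 of the 45101 probe sets of the table: 4 for Hmga2, 6 for Igf2bp3, 4 for Igf2bp1 and 1 for Lin28b. Hmga1 and Igf2bp2 are not analysed here, because no probe set carries either symbol alone. Of the 15 probe sets, 5 passed the filter on low values, 3 of Hmga2 and 2 of Igf2bp3. That filter asks for more than 3.19, the median of the whole table on the log2 scale and here called the background level, on at least 4 arrays. The members were chosen from results of these arrays, and Hmga2 differed far more between the strains than in any other comparison. Strain comparisons of the members are therefore given as a description with no test. The comparisons by plasmid and by sex were tested.

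The cells were primary astrocytes from newborn mice of postnatal day 0 to 1, of both sexes, bred either as 129S4/SvJae (called 129 here) or as C57BL/6J (called B6). Independent isolates were stably transfected with 5 µg of a plasmid, pcDNA3.1-hygro with CDCA7L or the empty vector, so every culture carries a hygromycin plasmid. Among 129 cultures, females had 4 Cdca7l and 4 vector arrays and males 5 and 5. Among B6 cultures, females had 4 Cdca7l and 5 vector arrays and males 5 and 5. Labels such as 3(1) name the clone of a culture, and the sources used here do not give how many animals stand behind each. Precision is limited by the number of arrays, as these have no read depth.

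HMGA2 is a small chromatin protein that bends AT-rich DNA and keeps fetal stem cells, neural ones included, dividing. LIN28B binds the precursors of the let-7 microRNAs and blocks their maturation, and let-7 in turn represses the mRNAs of LIN28B, HMGA2 and the IGF2BP proteins, which bind and stabilise growth-related mRNAs. The mature let-7 sequences below, from RefSeq (GRCm38.p6), are shown because their seed, bases 2 to 8 in capitals, is what ties these genes together. The let-7 RNAs themselves are not analysed here.
let-7a-5p: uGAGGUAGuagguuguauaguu
let-7b-5p: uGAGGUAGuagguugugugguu
let-7d-5p: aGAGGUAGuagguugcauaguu
miR-98-5p: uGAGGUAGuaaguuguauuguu
let-7j: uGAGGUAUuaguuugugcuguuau
Of the let-7 and miR-98 entries in that table, 10 mature names from 12 precursor genes share the seed GAGGUAG, and let-7j has the seed GAGGUAU.

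The plasmid labels held in every group. Cdca7l, which encodes a nuclear MYC-binding protein, had group means of 12.36 to 13.07 on the log2 scale with its plasmid and of 7.62 to 8.53 with the vector, and the averaged difference of 4.61 ± 0.48 (SE) passed limma's test (adjusted p = 1.25e-06). The array of 129 female vector 1(3) stood apart, with an upper quartile of 8.36 against 9.03 to 9.51 on the other 36 arrays. The array labelled B6 female vector 5.1(1) went against its label: Xist, the RNA of the inactive X, read 2.40 there against 10.71 to 12.20 on the other 16 female arrays, and Y-linked Eif2s3y read 11.91, within the male range. Of 10 astrocyte markers, 8 exceeded the background level on all 37 arrays, Slc1a2 on 36 and S100b on 13.

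Hmga2 RNA was high in 129 cultures and mostly low in B6 cultures, and it varied among cultures of the same group more than almost any other RNA on the array. Its leading probe set, 1450780_s_at, the one with the highest mean, ran from 3.58 to 13.6 on the log2 scale. The suffix _s_at marks a probe set that can detect several related transcripts. In 129 females with Cdca7l the values were 13.2, 13.1, 9.95 and 5.09 for clones 4(1), 2(1), 2(3) and 1(3). In 129 females with the vector they were 13.4, 13.2, 9.96 and 7.37 for the same clones in that order. So the order of the 4 clones was the same under both plasmids, from 2 very high clones to 1 low one. In 129 males with Cdca7l the values were 13.6, 13.6, 9.81, 9.10 and 5.31 for clones 3(1), 5(1), 3(3), 3(2) and 1(4). In 129 males with the vector they were 13.3, 13.1, 12.8, 11.1 and 9.99 for clones 3(1), 5(1), 3(3), 5(2) and 3(2). Clones 3(1) and 5(1) were again the highest, and the low clone 1(4) has no vector array.

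In B6 females with Cdca7l the values were 9.68, 6.35, 6.11 and 5.12 for clones 6(3), 4(5), 1(4) and 3(3). In B6 females with the vector they were 11.6, 9.22, 4.93, 4.35 and 3.58 for clones 2.1(1), 6(3), 3(3), 5.1(1) and 4(5). In these groups 1 or 2 clones stood near the middle of the 129 range while the others stayed low. In B6 males with Cdca7l the values were 9.81, 7.15, 4.64, 4.36 and 4.33 for clones 4(3), 3(5), 2(2), 5(3) and 5.6(1). In B6 males with the vector they were 10.9, 5.10, 4.42, 4.33 and 4.32 for clones 4(3), 3(5), 2(4), 5.6(1) and 2(2). Clone 4(3) was thus the highest with either plasmid, and 3(5) came next, at 7.15 with Cdca7l and 5.10 with the vector. Across the strains, 9 of 18 arrays of 129 and 0 of 19 of B6 exceeded 12, while 15 and 5 exceeded 9.

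The strain means were 10.94 ± 2.81 (SD, n = 18) in 129 and 6.33 ± 2.58 (SD, n = 19) in B6. The fitted difference of 129 minus B6 was 4.56 ± 0.92 (SE), which is 23.6-fold, with arrays of the same clone counted as separate. The other probe sets of Hmga2 gave 5.43 for 1422851_at and 5.24 for 1450781_at, and 5.03 and 4.70 with values below the background level raised to it. For these, 13 and 12 of the 19 B6 arrays stayed at or below the background level. The ranges of the strains overlapped in each of the 4 combinations of sex and plasmid. For the leading probe set, 129 exceeded B6 by 3.51 and 4.26 in females with Cdca7l and vector, and by 4.22 and 6.25 in males. Without the array of 129 female vector 1(3) and the one labelled B6 female vector 5.1(1) the difference was 4.71. In RNA from a whole culture, fewer cells of a type and less RNA per cell cannot be told apart.

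**Figure D1:**
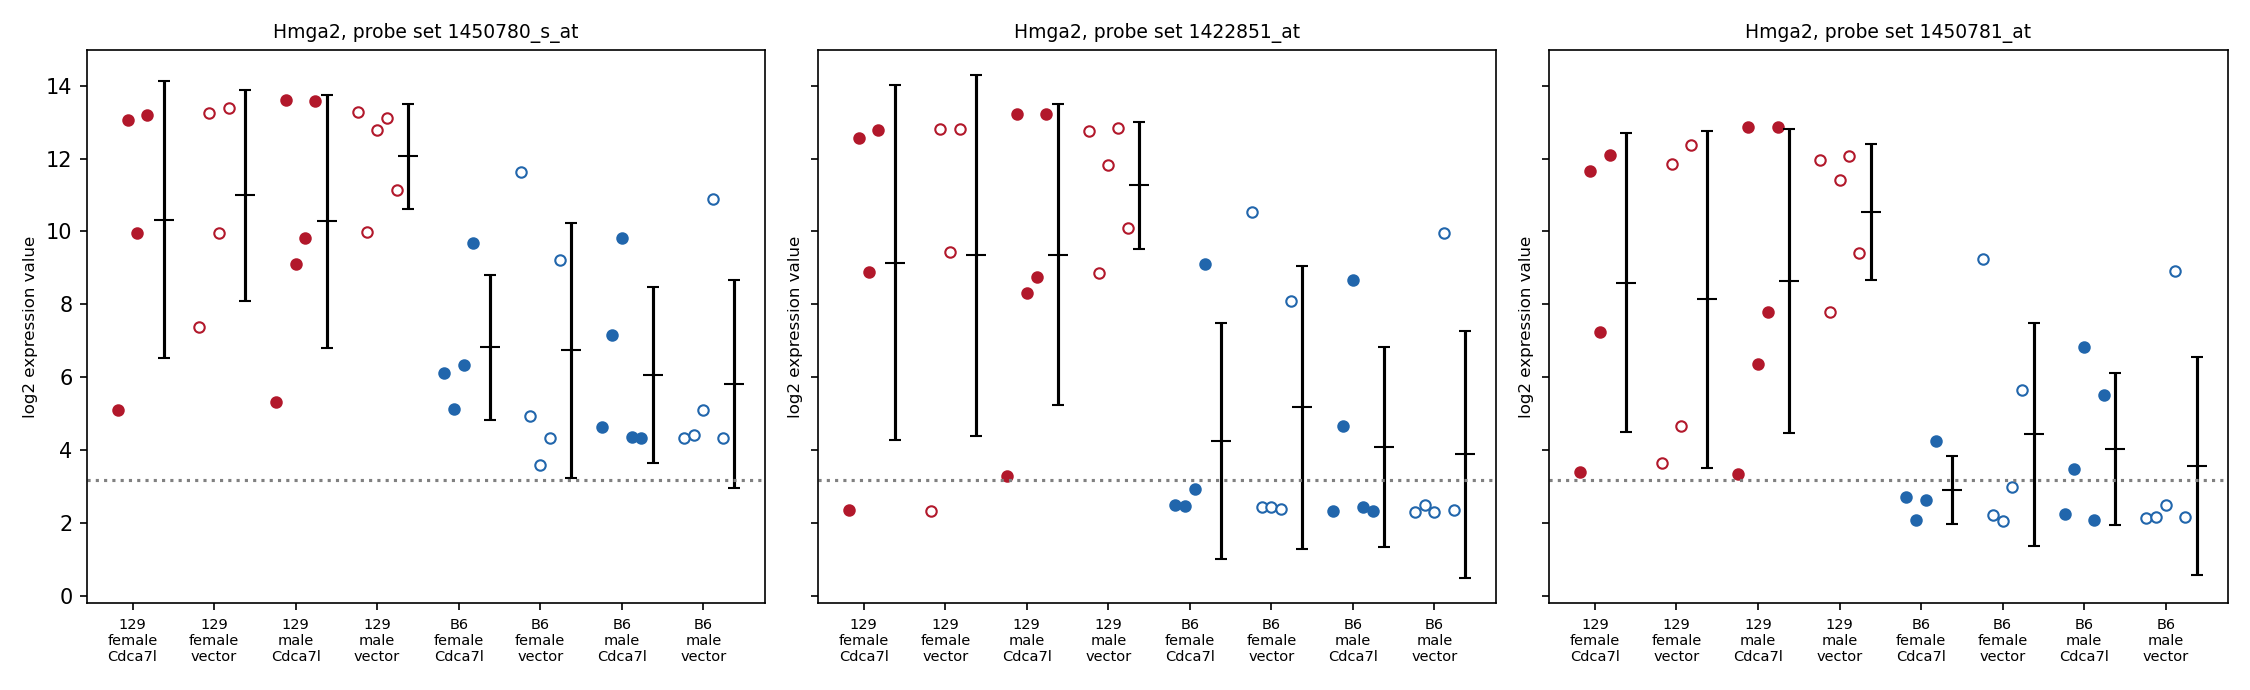
Log2 expression values of 3 Hmga2 probe sets on each array, by strain, sex and plasmid. Points are arrays (filled, Cdca7l; open, vector; red, 129; blue, B6), black marks are the group mean and SD, and the dotted line is the background level of 3.19. For 1450780_s_at the group means lie at 10.28 to 12.06 in 129 and at 5.81 to 6.82 in B6, and single arrays of both strains cross between.

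By group mean of 1450780_s_at the order was 129 male vector (12.06 ± 1.43, SD, n = 5), 129 female vector (10.99 ± 2.89, n = 4), 129 female Cdca7l (10.33 ± 3.80, n = 4) and 129 male Cdca7l (10.28 ± 3.47, n = 5). There followed B6 female Cdca7l (6.82 ± 1.98, n = 4), B6 female vector (6.74 ± 3.50, n = 5), B6 male Cdca7l (6.06 ± 2.41, n = 5) and B6 male vector (5.81 ± 2.85, n = 5). Neighbours within a strain differed by less than their SDs. The step of 3.46 between the lowest 129 group and the highest B6 group was about as large as the larger of those groups' SDs. The SD within groups was 2.88 for this probe set against a median of 0.643 over all probe sets tested, and 99.8% of them had a lower one. The fourth probe set, 1446196_at, stayed at or below the background level except on 129 male Cdca7l 5(1), at 4.34, and 3(1), at 3.80, which were also the highest arrays of the leading probe set.

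The promoter of Hmga2 is printed because Hmga2 carries the main pattern; it is the RefSeq sequence of the 250 bases before the annotated start, chr10:120476470-120476719 on the minus strand of GRCm38.p6, a C57BL/6J genome. Capitals mark the motif CTCTCTC, searched on both strands with overlaps counted.
Hmga2 promoter: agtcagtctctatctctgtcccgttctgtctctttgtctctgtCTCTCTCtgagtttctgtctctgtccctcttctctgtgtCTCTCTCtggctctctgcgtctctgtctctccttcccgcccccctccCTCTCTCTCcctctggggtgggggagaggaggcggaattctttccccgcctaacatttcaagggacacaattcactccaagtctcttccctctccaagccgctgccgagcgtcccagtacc
It holds 4 matches, all on the printed strand, and 8.32% of 32851 promoters of the same length hold at least 1. Pyrimidines make up 70.8% of its bases, and 99.6% of the promoters have a lower share. The E-box CACGTG, the motif to which MYC binds with its partner, has no match in this window and is found in 6.02% of all promoters.

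In the fit without clone pairs, no effect of Cdca7l on a member exceeded the spread between arrays. Averaged over strain and sex, Hmga2 (1450780_s_at) differed by -0.53 ± 0.92 (SE) between Cdca7l and vector, with a 95% interval from -2.41 to 1.35 (limma, adjusted p = 0.999). The 2 other tested probe sets of Hmga2 gave -0.71 and -0.62. Of the 5 tested, 0 reached limma's threshold of an adjusted p under 0.05 and 0 an unadjusted p under 0.05, where 0.00782% of all 25579 probe sets tested passed, those of Cdca7l and Dnah11. The Dnah11 probe set had group means of 12.05 to 12.69 with Cdca7l and 7.18 to 7.98 with the vector. These lie near those of Cdca7l itself, and the reason was not tested. Within 129 females the difference of the leading Hmga2 probe set was -0.67, within 129 males -1.77, within B6 females 0.08 and within B6 males 0.25, with SEs of 1.77 to 1.97. In each of these 4 comparisons 0 of the 5 passed or had an unadjusted p under 0.05 in limma, and 0% of all probe sets passed. The difference of the Cdca7l effect between the strains was -1.38 ± 1.85 and that between the sexes -0.47 ± 1.85, again with 0 of 5 members and 0% of all probe sets past the threshold. The intervals of this fit, which uses no clone pairs, are wide, so changes of a few fold could not be seen in single groups with it.

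Arrays that share a clone label were close in Hmga2, whichever plasmid they carried. Over the 15 clones with both plasmids, the 2 arrays of a clone differed by 0.948 on average in 1450780_s_at, with a median of 0.466. Arrays of different clones in the same strain and sex, one with each plasmid, differed by 3.27 on average over 42 pairs. The ratio of the former to the latter was 0.290, where the median ratio over all probe sets tested was 0.708 and 1.03% had a lower one. For 1422851_at the ratio was 0.172 and for 1450781_at 0.340. Fitted within clones on those 30 arrays, the averaged Cdca7l difference of 1450780_s_at was 0.01, against the -0.53 above from all 37. The Cdca7l array was the lower one in 8 of the 15 clones, and in 10 of the 15 the 2 arrays differed by less than 1. The largest differences within a clone ran both ways: Cdca7l minus vector was -2.97 in 129 male 3(3), -2.28 in 129 female 1(3), 2.77 in B6 female 4(5) and 2.06 in B6 male 3(5). Over all probe sets tested, the 2 arrays of 129 male 3(3) did not deviate together from their group means (r = -0.0887). Those of 129 female 2(3) hardly did (0.061), so whether these 2 labels mark pairs is not settled.

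**Figure D2:**
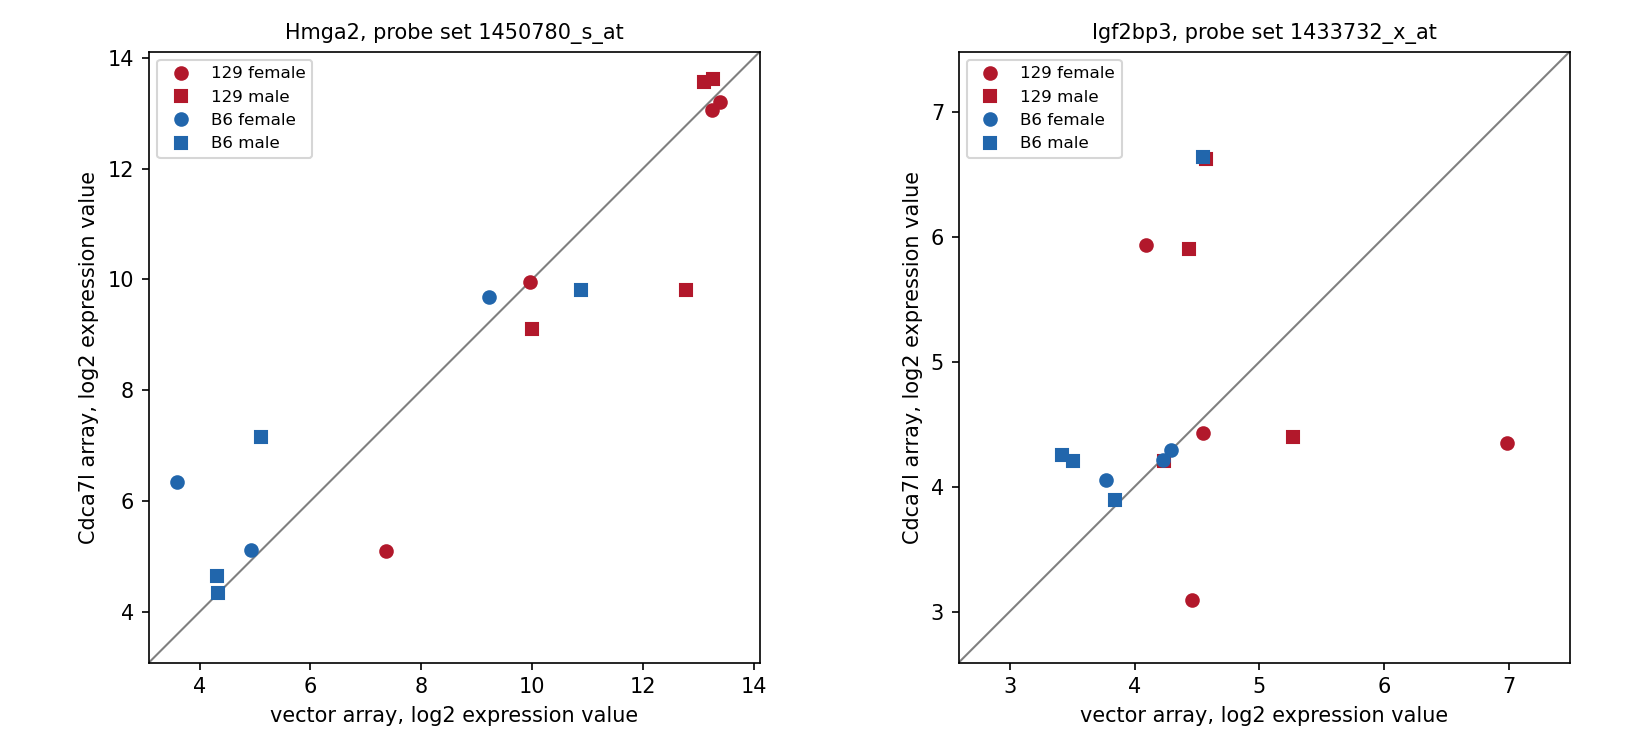
Cdca7l array against vector array of the same clone, in log2 expression values, for Hmga2 1450780_s_at (left) and Igf2bp3 1433732_x_at (right). Points are the 15 clones with both arrays (circles, female; squares, male; red, 129; blue, B6), and the line marks equal values. Hmga2 points lie near the line over most of their range from 3.58 to 13.6, while several Igf2bp3 points lie far from it, with a ratio of same-clone to other-clone differences of 0.993.

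No sex difference of a member exceeded the spread either. Males minus females was -0.17 ± 0.92 for 1450780_s_at (limma, adjusted p = 0.938), 0.18 for 1422851_at and 0.68 for 1450781_at. Among the 5 members' probe sets limma called 0 and gave 0 an unadjusted p under 0.05, where 0.321% of all probe sets tested passed. The sign turned with the probe set and with single arrays: without 129 male Cdca7l 1(4) the leading probe set gave 0.14. This test counts B6 female vector 5.1(1) as labelled, a female, although its Xist and Eif2s3y read as in males. Without it and 129 female vector 1(3) the leading probe set gave -0.62, 0 of the 5 were called, and the calls over all probe sets went from 82 to 260. They were 35 without 129 female Cdca7l 4(1) and 947 without 129 female Cdca7l 1(3).

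In 2 of its 6 probe sets Igf2bp3 RNA read low but above the background level in most cultures. In the other 4 it was at or below that level almost everywhere, and it stood out in a few cultures. Its leading probe set, 1433732_x_at, whose suffix marks probes that may also match other transcripts, had a median of 4.29 and ran from 3.09 to 6.98. The highest arrays were 129 female vector 2(1) at 6.98, B6 male Cdca7l 4(3) at 6.64, 129 male Cdca7l 3(1) at 6.63, 129 female Cdca7l 2(3) at 5.93 and 129 male Cdca7l 5(1) at 5.91. All but 1 of these 5 arrays were from 129, and 4 were Cdca7l arrays. None of the partner arrays of the same clones was among the 5, so that choice alone makes each partner lower. The partners read 4.35 for 129 female 2(1), 4.55 for B6 male 4(3), 4.57 for 129 male 3(1), 4.09 for 129 female 2(3) and 4.43 for 129 male 5(1).

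The mean of 1433732_x_at was 4.82 ± 0.97 (SD, n = 18) in 129 and 4.23 ± 0.65 (SD, n = 19) in B6, and the fitted strain difference was 0.58 ± 0.28 (SE). It was 0.42 without 129 female vector 2(1) and 0.70 without B6 male Cdca7l 4(3). The averaged Cdca7l difference was 0.16 ± 0.28 (limma, adjusted p = 0.999) and that between the sexes 0.11 ± 0.28 (adjusted p = 0.854). Its largest Cdca7l difference within 1 group was 0.78 ± 0.53 in B6 males, with an unadjusted p of 0.148 in limma and an adjusted p of 1. In that group 1 array, 4(3), lay far above the others. Within the 4 B6 male clones with both plasmids, Cdca7l minus vector was 0.05, 0.84, 2.09 and 0.70 for 2(2), 3(5), 4(3) and 5.6(1), so all 4 were positive. Fitted within clones, the difference was 0.92 (limma, adjusted p = 0.971). Over all 15 clones, Cdca7l was the lower array in 6, of which 1 was from B6. The second tested probe set, 1433731_at, was nearly flat, from 3.84 to 5.15 with an SD within groups of 0.225, and its highest array was the same B6 male Cdca7l 4(3). Its strain difference was 0.01 ± 0.08, its averaged Cdca7l difference -0.01 ± 0.08 and its sex difference 0.06 ± 0.08.

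The other 4 probe sets of Igf2bp3 did not pass the filter. Of these, 1422610_s_at read 5.79 on 129 female vector 2(1) and 3.73 on 129 female Cdca7l 2(1), both arrays of the clone that also led 1433732_x_at with the vector. The probe set 1450687_at read 3.44 on 129 female vector 1(3), the array that stood apart, and 1422611_s_at and 1453957_a_at exceeded the background level on 0 of 37 arrays. The RefSeq promoter of Igf2bp3 is shown since this gene, unlike Hmga2, has an E-box in it: the 250 bases at chr6:49214955-49215204, minus strand, GRCm38.p6, with CACGTG in capitals.
Igf2bp3 promoter: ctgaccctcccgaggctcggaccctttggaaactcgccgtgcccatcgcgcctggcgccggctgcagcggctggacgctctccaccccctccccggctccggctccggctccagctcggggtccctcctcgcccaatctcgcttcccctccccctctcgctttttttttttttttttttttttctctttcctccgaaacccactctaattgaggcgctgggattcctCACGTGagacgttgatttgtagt
It holds 1 match and no CTCTCTC, and pyrimidines make up 68% of it, more than in 99.3% of promoters. The Lin28b promoter of the same length also holds 1 E-box.

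Igf2bp1, an mRNA-binding protein of fetal tissue, and Lin28b were at the background level almost everywhere. For Igf2bp1, 1455223_at exceeded it on 129 male Cdca7l 5(1), at 3.93, and 129 male vector 3(1), at 3.26. Both clones were among the highest for Hmga2. The probe set 1459825_x_at read 6.22 on 129 female vector 1(3) and 3.39 on 129 female vector 4(1), 1449210_at read 3.39 on 129 male vector 3(3), and 1418761_at exceeded the level on 0 arrays. Lin28b, through 1430803_at, ran from 2.52 to 3.59 and exceeded the level on 129 female vector 1(3), at 3.59, and 4(1), at 3.30. Of these single high readings, 2 came from the array that stood apart, 1(3), and its part in them was not tested. In B6, 0 of 19 arrays exceeded the level for any probe set of Igf2bp1 or Lin28b. Lin28a, the paralogue of Lin28b, stayed below the level on every array for both of its probe sets.

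**Figure D3:**
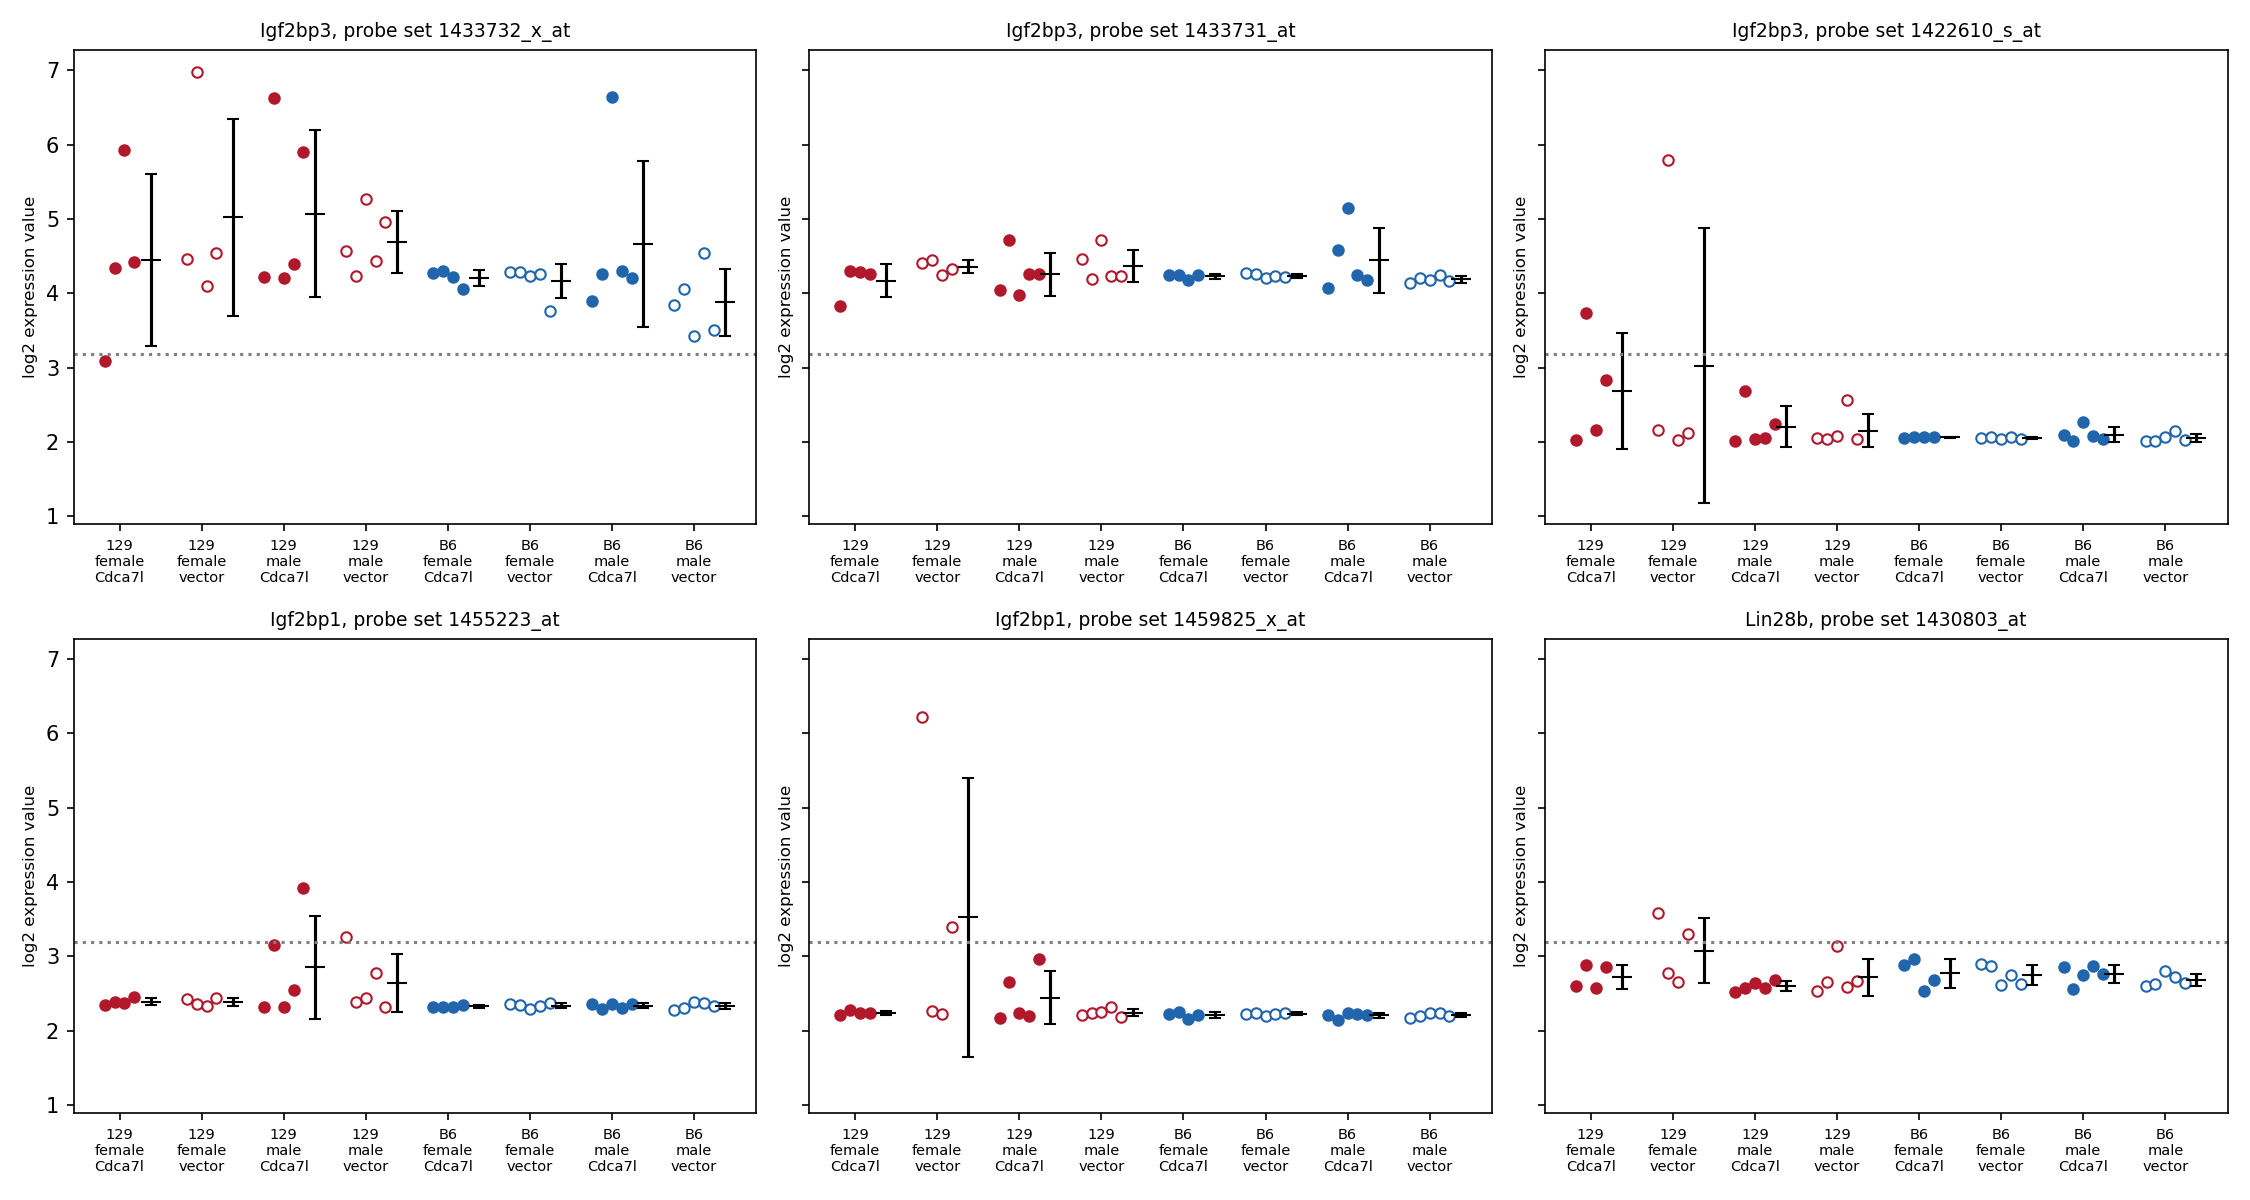
Log2 expression values of 3 probe sets of Igf2bp3, 2 of Igf2bp1 and 1 of Lin28b on each array, by strain, sex and plasmid. Points are arrays (filled, Cdca7l; open, vector; red, 129; blue, B6), black marks are the group mean and SD, and the dotted line is the background level. For the 2 tested probe sets of Igf2bp3 all but 1 array lie above that line, and for the other 4 most lie below it, with single high arrays such as 6.98 for 1433732_x_at and 6.22 for 1459825_x_at.

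A processed pseudogene, Hmga2-ps1, was read in 129 cultures alone. Its probe set 1440559_at exceeded the background level on 12 of 18 arrays of 129, up to 10.1, and on 0 of 19 of B6, where the highest read 2.11. All 12 arrays had Hmga2 at 9.81 or more. On B6 female vector 2.1(1), where Hmga2 read 11.6, the pseudogene still lay at the background level. The 129 mean was at least 5.00-fold above the B6 mean, taken against the background level. Its Pearson correlation with Hmga2 was 0.80 over all 37 arrays and 0.87 over the 18 of 129, given as a description, since the arrays share strains and clones. A pseudogene shares sequence with its parent gene, so probes for either may catch both RNAs.

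Among 12139 genes with a tested probe set, those most like Hmga2 over the 37 arrays, by Pearson's r, were Crct1 (r = 0.95), Mical2 (0.94), Inhba (0.94), Plaur (0.94) and Plin2 (0.94). Mical2 encodes an enzyme that oxidises actin, Inhba a subunit of activin, Plaur the urokinase receptor and Plin2 a coat protein of lipid droplets. The likeness held within each strain: in 129 r ran from 0.88 for Plaur to 0.95 for Inhba, and in B6 from 0.83 for Plin2 to 0.93 for Plaur. Plaur ran from 4.44 to 10.99 and reached 10.1 on B6 female vector 2.1(1), the highest B6 array of Hmga2. Crct1 read 10.9 on that array and 3.04 on 129 male Cdca7l 1(4), a low array of Hmga2. With group means removed, Mical2 led with 0.93, followed by Mcfd2, Plaur, Crct1 and Abcg2 at 0.92. The genes most like Igf2bp3 (1433732_x_at) were Stc2 (r = 0.71), Tnfrsf22 (0.61) and Six4 (0.61), and a group-centred r kept Stc2 alone among its first 3. These r values are descriptions with no test.

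Several lists of cell type markers varied along with Hmga2 across the cultures. Of 9 fibroblast and meningeal markers, 6 were higher in 129 in limma, where 25.2% of all probe sets tested passed, 10.6% higher and 14.6% lower in 129. Col3a1, a fibrillar collagen, read at least 28.8-fold higher on average in 129, above the background level on 15 of 18 arrays of 129 and 0 of 19 of B6 (adjusted p = 3.62e-05). Of 10 astrocyte markers 4 were lower in 129, among them the water channel Aqp4 by 0.93 and the glutamate transporter Slc1a3 by 0.96, and of 9 proliferation markers 4 were higher. The count of the fibroblast and meningeal list was 3 with the clone label as a random block, and likewise 3 in vector arrays alone, where those of the astrocyte and proliferation lists were 0; with the block the latter was 2. The mean centred level of the fibroblast and meningeal list ran from -1.98 to 4.66 in 129 and from -1.86 to -0.36 in B6, with r = 0.74 against Hmga2. That of the astrocyte list ran from -2.79 to 0.80 in 129 and from -0.75 to 1.02 in B6, with r = -0.76. For the proliferation list r was 0.56. With group means removed, r was 0.58, -0.81 and 0.46 for these lists in that order. The radial glia and neural progenitor list had r = -0.62, or -0.76 with group means removed, and 0 of its 9 tested markers passed between the strains. For the microglia and macrophage list r was 0.19. Of 6 tested neuron markers 1 was higher and 3 lower in 129 in limma, 66.7% against 25.2% of all probe sets. In vector arrays alone 1 was higher and 0 lower. The neuron list had r = -0.46, or -0.37 with group means removed. Of 3 tested pericyte and smooth muscle markers 1 was lower in 129, 33.3% of that list. Its r was 0.10, or 0.66 with group means removed.

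The 9 arrays with Hmga2 above 12 differed among themselves in these markers. The 4 arrays of 129 male clones 3(1) and 5(1) had fibroblast and meningeal levels of 4.49 to 4.66. The 4 arrays of 129 female clones 2(1) and 4(1), with Hmga2 just as high, had 0.69 to 0.78 on that list but 2.40 to 3.29 on the proliferation list and -2.79 to -1.40 on the astrocyte list. The ninth, 129 male vector 3(3), with Hmga2 at 12.8, had 0.17, -0.38 and -0.85 on these lists in that order. The highest B6 array, female vector 2.1(1), had -0.64, -1.20 and -0.75, and its fibroblast and meningeal level lay toward the upper end of the B6 range given above. The 2 B6 arrays of female clone 6(3), with Hmga2 above 9, had the highest B6 levels of that list, -0.36 and -0.41. Those of B6 male clone 4(3), with Hmga2 at 9.81 with Cdca7l and 10.9 with the vector, had -0.88 and -1.09. The latter was the B6 median of the list. On the microglia and macrophage list, female vector 2.1(1) had 2.85, the fourth highest of the 37 arrays, with the macrophage genes Tyrobp at 8.93 and Ptprc at 4.35. Col3a1 and Aldh1a2 were at or below the background level on all B6 arrays, the 5 with Hmga2 above 9 included. Between the strains, 0 of 8 tested genes of the microglia and macrophage list passed (limma, 0 also at an unadjusted p under 0.05). Of 7 endothelial markers, Pecam1 and Cdh5 were among those that did not pass the filter. Of the 2 tested, 1 was higher in 129 in limma, where 25.2% of all probe sets passed. The endothelial marker Flt1 exceeded the background level on 8 of 18 arrays of 129 and 0 of 19 of B6. Its mean was at least 3.20-fold higher in 129, and the endothelial list had r = 0.63 against Hmga2. Apart from these values, the part of other cells in the Hmga2 levels was not tested.

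**Figure D4:**
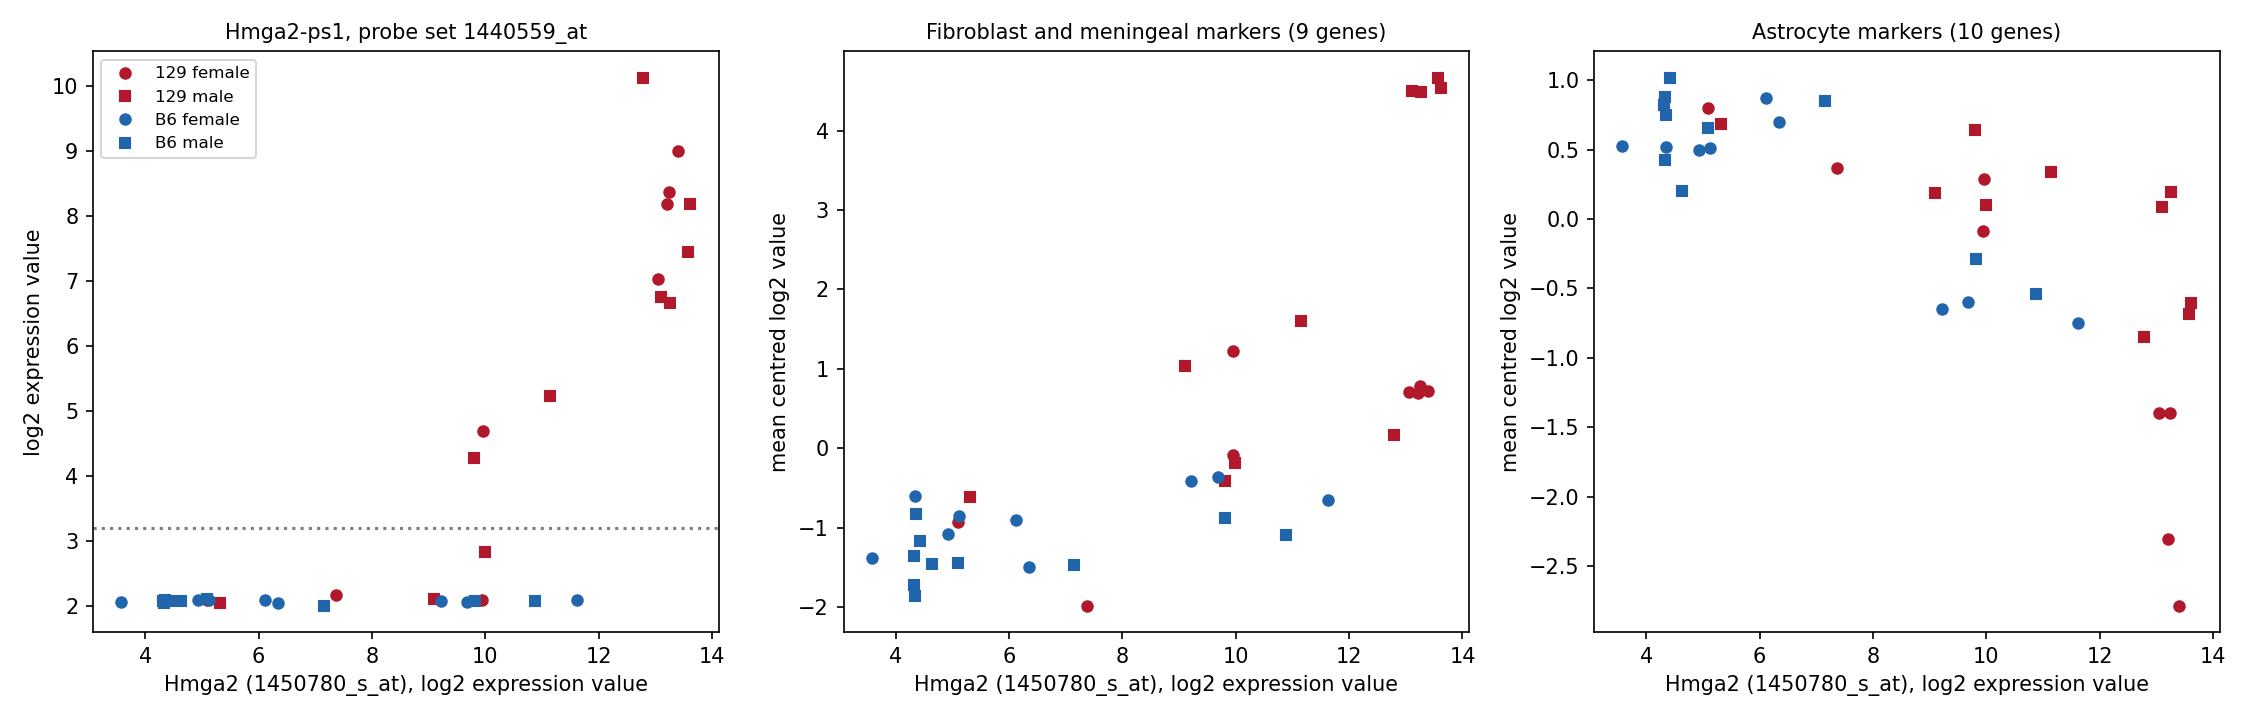
Each array's Hmga2 value (1450780_s_at, log2) on the x axis against Hmga2-ps1 (left, log2 expression value; dotted line, background level), the fibroblast and meningeal markers (middle) and the astrocyte markers (right), both as the mean over genes of log2 values centred on all arrays. Circles are female, squares male, red 129 and blue B6. Hmga2-ps1 lies above the line on 12 arrays of 129 alone, and the 4 arrays with fibroblast and meningeal levels of 4.49 to 4.66 are all from 129 males.

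Outside the members, 40 genes were listed as let-7 targets and 32 of them were tested. Of these, 5 were higher and 2 lower in 129 in limma, which is 21.9% of the list against 25.2% of all probe sets tested, and their median strain difference was 0.08 against 0.005. Col1a2, a collagen chain also counted among the fibroblast markers, had a mean of 12.14 ± 1.48 (SD, n = 18) in 129 and 9.30 ± 1.38 (SD, n = 19) in B6 (limma, adjusted p = 4.36e-05). Cdc25a, a phosphatase that starts cell division, was higher by 1.22 (adjusted p = 0.00134), and Nap1l1, a histone chaperone, by 0.23 (adjusted p = 0.00728). Insr, the insulin receptor, was lower by 1.05 in 129 (adjusted p = 0.00019). The cytokine Il6 (2.20) and the ubiquitin-conjugating enzyme Cdc34 (0.58) were also higher and the kinase Map3k1 (-0.35) lower, but these 3 calls were lost with the clone label as a random block (adjusted p of 0.0593, 0.0536 and 0.0811). The call of Cdc34 was also lost without 129 female Cdca7l 2(1) or B6 female Cdca7l 1(4), and that of Map3k1 without 129 female Cdca7l 2(1), with adjusted p up to 0.0543 and 0.0538. In vector arrays alone, Col1a2, Insr and Il6 kept a call. For the averaged Cdca7l effect and the sex difference 0 of 32 passed in limma, with 2 at an unadjusted p under 0.05 in each. Dicer1 (0.44), Plagl1 (0.31) and Igdcc3 (0.74) came nearest to a Cdca7l effect.

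Of the 20 genes of LIN28 and microRNA processing, 19 were tested, 2 were higher and 2 lower in 129 in limma (21.1% of the list against 25.2% of all probe sets), and the median strain difference was -0.02. Tarbp2, a partner of Dicer, was higher by 0.33 (adjusted p = 0.00656) and Ran, which powers nuclear export, by 0.20 (adjusted p = 0.00862). Ago1, an Argonaute protein, was lower by 0.41 (adjusted p = 0.00662) and Dis3l2, the nuclease that destroys let-7 precursors tailed through LIN28, by 0.65 (adjusted p = 0.0131, and 0.0508 with the clone label as a random block). In vector arrays alone 0 of the 19 passed. With Cdca7l and between the sexes 0 passed in limma, with 3 and 5 at an unadjusted p under 0.05. Nearest to a Cdca7l effect were Dis3l2 (-0.49), Dicer1 (0.44) and Ago3 (-0.38), each with an adjusted p of 0.999.

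Of 18 genes listed downstream of HMGA and IGF2BP proteins, 16 were tested and 2 were higher in 129 in limma (12.5% against 25.2% of all probe sets), with a median strain difference of 0.47. Cd44, a hyaluronan receptor whose mRNA IGF2BP proteins bind, was higher by 0.30 (adjusted p = 0.0117), a call that vector arrays alone did not make (0.065). Snai1, a repressor of E-cadherin activated by HMGA2, passed at an adjusted p of 0.0414 but was above the background level on 7 of 18 arrays of 129 and 0 of 19 of B6. Its mean was at least 1.25-fold higher in 129, and the call was lost without any 1 of 17 arrays (adjusted p up to 0.0722) and with the clone label as a random block (0.0708). On those 7 arrays Hmga2 read 13.1 to 13.6. Snai1 was highest on the 4 arrays of 129 male clones 3(1) and 5(1), from 6.51 to 8.14. Without the 2 arrays named above for standing apart, 6 of the 16 were called higher and 0 lower, 37.5% against 27.6% of all probe sets in that fit. With the clone label as a random block 1 of the 16 was called, and in vector arrays alone 0. Without those 2 arrays the let-7 targets went to 31.25% and LIN28 and microRNA processing to 26.3%. Of the lists below, the RNA-binding regulators went to 41.7% and the chromatin architecture genes stayed at 0%.

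Igf2, the fetal growth factor whose mRNA names the IGF2BP family, is in the same list. It was high in some clones with high Hmga2 and not in others, and whether the members act on it here was not tested. It read 10.4 and 10.2 on 129 male 3(1) and 10.2 and 10.4 on 129 male 5(1), with Cdca7l and vector in that order, and 5.94 on 129 male vector 5(2). On the other 32 arrays it was at or below the background level, among them 129 female vector 4(1), where Hmga2 read 13.4. With 0 of 19 B6 arrays above that level, its 129 mean was at least 1.98-fold higher, and the strain difference did not pass (limma, adjusted p = 0.0546). The 4 arrays near 10 were also those with the highest fibroblast and meningeal levels. For the averaged Cdca7l effect and the sex difference 0 of the 16 genes passed in limma, with 1 and 2 at an unadjusted p under 0.05; Mapk4 (-0.25), Nes (-0.23) and Ccna2 (0.37) came nearest with Cdca7l.

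Lists of chromatin architecture genes and of RNA-binding regulators were counted in the same way. Of 10 HMG-box and other chromatin architecture genes, 6 were tested and 0 differed between strains in limma, with 0 at an unadjusted p under 0.05. The nearest were Hmgb3 (-0.19), Top2a (0.38) and Hmgn5 (-0.12). With Cdca7l, Top2a (0.43), Hmgb2 (0.25) and Hmgn5 (0.14) came nearest, and 0 passed, with 0 at an unadjusted p under 0.05. Of 14 other RNA-binding regulators 12 were tested, 3 were higher and 1 lower in 129 in limma, 33.3% of the list against 25.2% of all probe sets. Elavl2, a neuronal mRNA stabiliser, was higher by 2.47 ± 0.63 (SE, adjusted p = 0.00493), Ybx1 by 0.38 (0.00153) and Dhx9 by 0.24 (0.0122), and Msi2, a stem cell translation regulator, was lower by 0.45 (0.00906). In vector arrays alone 0 of these 12 passed. Elavl2 followed Hmga2 within B6 as well, with r = 0.87 over 19 arrays and 0.51 over the 18 of 129. With Cdca7l 0 of 12 passed in limma, with 0 at an unadjusted p under 0.05 and Dhx9 (0.09), Msi2 (0.16) and Hnrnpu (0.04) nearest, and between the sexes 0 passed, with 3 at that level.

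**Figure D5:**
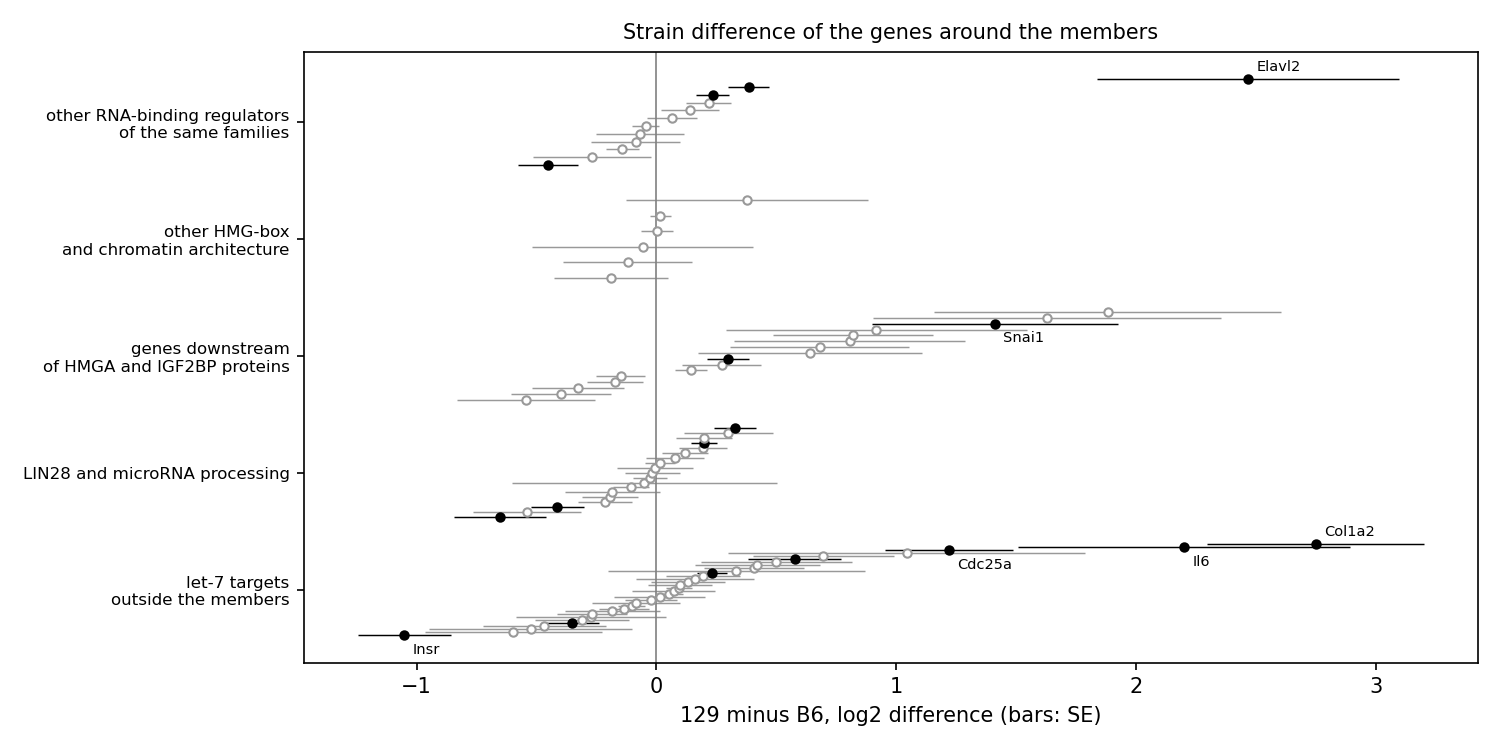
Strain difference, 129 minus B6 on the log2 scale, of each tested gene in 5 lists around the members, with SE bars. Filled black points passed limma's test at an adjusted p under 0.05 and open grey points did not; gene names mark the called genes farthest from 0. Col1a2 at 2.75 and Elavl2 at 2.47 lie farthest to the right among the called genes, and Insr at -1.05 farthest to the left.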

How the data were processed

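RNA of 37 cultures (10 ng each) was amplified and hybridised to 1 array per culture. Per the labels and the submitters' processing notes, the authors deposited log2 expression values made with GCRMA and Partek 6.5; the sources used here do not say whether they did so in 1 run. Values were used as deposited. Probe sets were named by the platform annotation, updated by Entrez ID to GRCm38.p6: 34958 of 45101 carried 1 symbol (34754 matched), 932 several and 9211 none.

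The filter kept probe sets above the table's median on at least 4 arrays and dropped 64 control probe sets, leaving 25579. One model in limma 3.58.1 (R 4.3.3) held a mean for each of 8 groups, with 29 residual degrees of freedom. The 10 comparisons were called at a Benjamini-Hochberg adjusted p under 0.05 over all tested probe sets. Every adjusted p is limma's. The fit was tested on simulated data. For a gene not above the background level in any B6 culture, the fold is a lower bound, the 129 mean over the mean of B6 values raised to that level. Gene lists used 1 probe set per gene, the highest mean. List levels are means of values centred on all arrays.

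Members and lists were chosen with earlier results of these data known. Named were all member probe sets, up to 4 called members of a list, otherwise the 3 with the smallest p in the strain and averaged Cdca7l comparisons, Cdca7l, and the 5 (Hmga2) or 3 genes most alike. Dnah11, Il6, Cdc34, Map3k1, Igf2, Lin28a, Hmga2-ps1, Xist, Eif2s3y and the cell type markers named singly fall outside that rule and were chosen after their values were seen.

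Whether same-labelled Cdca7l and vector arrays are pairs was checked by the correlation of their deviations from group means. It was 0.432 to 0.775 over 3 pairs in B6 females and 0.376 to 0.572 over 4 in B6 males. In 129 it was 0.416 or more, except for female 2(3), at 0.061, and male 3(3), at -0.0887. The labels were taken as pairs in B6. The differences and the fit within clones also used the 129 labels, female 2(3) and male 3(3) included. The reported fit used no pairs and treats same-labelled arrays as separate, although the consensus correlation within a clone label was 0.409. Nothing states that clones came from separate animals, so p-values measure the spread between these cultures. Alternatives covered the variance prior, the filter, quantile normalization, array weights, the clone label as a block, a floor at the background level, vector arrays alone and arrays left out.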

Additional observations from a re-analysis of the deposited data

Results flagged for a closer look

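A gap test within groups was run on the 15 member probe sets and that of Hmga2-ps1, 128 groups in all. It marked 17 of them, 13.3%, where chance alone marks about 1 in 20. In 6 of the 17 no array exceeded the background level, and the other 11 are given here, all of member probe sets. For Hmga2, B6 male vector 4(3) was high in all 3 tested probe sets, at 9.95 against a next value of 2.48 in 1422851_at, at 10.88 against 5.10 in 1450780_s_at and at 8.92 against 2.50 in 1450781_at. B6 female Cdca7l 6(3) read 9.10 against 2.93 in 1422851_at. The same clones carried high Hmga2 with the other plasmid. For Igf2bp3 the high values were 6.98 in 1433732_x_at and 5.79 in 1422610_s_at on 129 female vector 2(1), and 6.64 in 1433732_x_at on B6 male Cdca7l 4(3). The low values of Igf2bp3 were 3.84 in 1433731_at on 129 female Cdca7l 1(3), 4.18 in 1433731_at on B6 female Cdca7l 4(5) and 3.77 in 1433732_x_at on B6 female vector 6(3). For Igf2bp1, 1449210_at read 3.39 on 129 male vector 3(3).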

How the results depend on the processing

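The strain difference of Hmga2 (1450780_s_at) stayed positive in every alternative run, from 4.32 to 4.99 with single arrays left out, 4.46 with clone labels as a random replicate block, and up to 5.80 with array weights, whose estimation stopped short of its tolerance. No member probe set passed in any tested comparison under any alternative (lowest adjusted p 0.28). The clone label as a fixed replicate block, fitted to 30 arrays in pairs, changed no member call. Counts over all probe sets moved: for the strain difference 6456 became 12132 with array weights, 4249 with the random block and 2222 in vector arrays alone. For the sex difference 82 became 6437, 19 and 20 in that order, 260 without the 2 arrays that stand apart and 35 to 947 with single arrays left out. For the averaged Cdca7l effect 2 became 1 with the fixed block. The call of Snai1 was lost without 129 female Cdca7l 4(1) or 2(1), 129 female vector 2(1), 129 male Cdca7l 3(1) or 5(1), 129 male vector 3(1) or 5(1), B6 female Cdca7l 4(5), 3(3) or 1(4), B6 female vector 4(5) or 3(3), B6 male Cdca7l 5(3) or 3(5), or B6 male vector 2(4), 5.6(1) or 2(2).

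Member differences that were not called changed sign as follows; the cause was not tested. With array weights, the averaged Cdca7l effect on Igf2bp3 1433731_at was 0.055, the effect in 129 females on Hmga2 1422851_at 1.06 and on 1450780_s_at 0.81, the effect in B6 females on 1433731_at 0.013 and on 1450780_s_at -0.028, and the sex difference of 1422851_at -0.67 and of 1450781_at -0.28. With the fixed block on pairs, the averaged effect was 0.0064 on 1433731_at and 0.0097 on 1450780_s_at, and that in B6 females 0.51 on 1422851_at. With the random block the sex difference of 1422851_at was -0.052. Without the 2 arrays that stand apart, the effect in 129 females on 1450781_at was -1.04, that in B6 females on 1450780_s_at -0.52, the sex difference of 1422851_at -0.58, and the sex difference of the Cdca7l effect 1.24, 0.43 and 0.74 on 1422851_at, 1450780_s_at and 1450781_at. With quantile normalization, the effect in B6 females was -0.10 on 1433732_x_at and -0.038 on 1450780_s_at, and the sex difference -0.039 on 1433731_at and -0.020 on 1433732_x_at. In vector arrays alone the sex difference was -0.019 on 1433731_at, -0.31 on 1433732_x_at and 0.067 on 1450780_s_at.

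With single arrays left out, the averaged effect on 1433731_at ran from -0.056 to 0.016. In 129 females the effect ran from -2.54 to 2.07 on 1422851_at, -1.88 to 1.08 on 1450780_s_at, -1.04 to 2.19 on 1450781_at and -1.07 to 0.083 on 1433732_x_at. In 129 males it ran from -0.011 to 0.59 on 1433732_x_at. In B6 females it ran from -2.55 to 0.41 on 1422851_at, -0.88 to 1.30 on 1450780_s_at, -0.015 to 0.0099 on 1433731_at and -0.056 to 0.095 on 1433732_x_at. In B6 males it ran from -0.94 to 1.73 on 1422851_at, -0.69 to 1.51 on 1450780_s_at and -0.25 to 1.79 on 1450781_at. The sex difference ran from -0.41 to 0.58 on 1422851_at, -0.60 to 0.14 on 1450780_s_at and -0.011 to 0.28 on 1433732_x_at. The strain difference of the effect ran from -1.86 to 0.44 on 1422851_at and -0.93 to 0.68 on 1450781_at. The sex difference of the effect ran from -1.42 to 0.89 on 1422851_at, -1.34 to 0.16 on 1450780_s_at and -1.05 to 0.56 on 1450781_at.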
